A study of Mus musculus with 8 samples.

Results

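Collagens, laminins and integrins were examined in liver RNA of KK-Ay mice on Affymetrix GeneChip mouse arrays, 1 for each mouse. The genes were taken by name: every probe set whose only gene symbol begins as a numbered collagen chain (Col), a laminin chain (Lama, Lamb or Lamc) or an integrin subunit (Itga or Itgb), without the interstitial collagens Col1a1, Col1a2 and Col3a1. This gave 78 genes of the 18193 on the array, on 159 of 45037 probe sets, and each gene was represented by the probe set with the highest mean over the 8 arrays. They fell into 8 fibrillar collagens, 16 basement membrane genes (6 type IV collagens and 10 laminin chains), 25 other collagens and 25 integrin subunits. The remaining 4 genes (Itgb1bp1, Itgb1bp2, Itgb3bp and Itgbl1) share the name but do not encode an integrin subunit.

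The mice were male KK-Ay mice, labelled 14 weeks of age. The 4 PD mice had been fed an AIN93G diet holding 1 g of persimmon peel (PP) extract per kg for 8 weeks. The 4 CD mice had been fed the AIN93G control diet without the extract for the same 8 weeks. All 8 mice carried the yellow agouti allele on the KK background, which makes them obese and diabetic, and no lean or nondiabetic strain was included. The arrayed mice had been picked from larger groups for total ketone bodies in plasma near the mean of their group, so that the spread given here is that of selected mice.

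The extracellular matrix of the liver is made to a large part by cells other than hepatocytes. Fibrillar collagens build the rope-like fibres of the tissue, type IV collagens and laminins build the thin sheets called basement membranes, and the other collagens link, anchor or span these structures. Integrins are receptors made of an alpha and a beta subunit that bind the matrix or other cells. In healthy liver the space along the sinusoids holds little basement membrane, and hepatic stellate cells are the known main source of collagen when the liver scars.

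The values are log2 model-based expression indices, so that a difference of 0.25 is a 1.19-fold difference. The median of an array was 7.09 to 7.16, and any 2 arrays correlated at 0.991 to 0.996. The liver label was borne out by the hepatocyte markers, whose 8 measured genes had log2 signals from 12.1 to 14.7. None of the 8 marker lists for cell types held a gene that the rank product called. In whole tissue, fewer cells of a type and less RNA per cell cannot be told apart.

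None of the 78 genes was called as different between PD and CD livers. The rank product, the test of the study, called 0 of the 78 genes as higher in PD mice and 0 as lower at a false discovery rate (FDR) under 0.1, and the same 0 on all 159 probe sets, where 0.218% of all probe sets were called as higher and 0.262% as lower. Counts of 0 are near those shares. The lowest FDR was 0.322 for a higher level, on Col23a1, and 0.705 for a lower level, on Col4a1. Col3a1, a collagen that the rule left out, was called as higher in PD mice on its brightest probe set (FDR = 0.0216). The groups overlapped on that probe set, and the other Col3a1 probe set was not called (FDR = 0.874). By limma, which sets each difference against the spread between mice, 0 of the 78 genes passed at an adjusted p under 0.1, as did 0.0% of all probe sets (lowest adjusted p = 0.998). An unadjusted limma p under 0.05 was found for 2 of the 78 genes, Itgax and Col5a2, against 4.24% of all genes. The PD and CD values did not overlap for 2 of the 78 genes, which were the same 2, against 2.15% of all genes. Both counts are near these shares.

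The intervals bound the difference on the probe set used for each gene. Another probe set of the gene could lie outside them. The second one of Col6a2 did, at 0.22 against an interval from −0.13 to 0.07. The 95% interval of the difference (PD minus CD, limma) lay within ±0.25 on the log2 scale for 65 of the 78 genes and within ±0.5, a 1.41-fold difference, for 77. The exception was Col23a1. The median difference was −0.01 over the 78 genes and −0.01 over all genes, with 32 genes higher and 46 lower in PD mice. By class the median difference was −0.04 for the fibrillar collagens, −0.03 for the basement membrane genes, −0.00 for the other collagens and −0.01 for the integrin subunits.

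**Figure D1:**
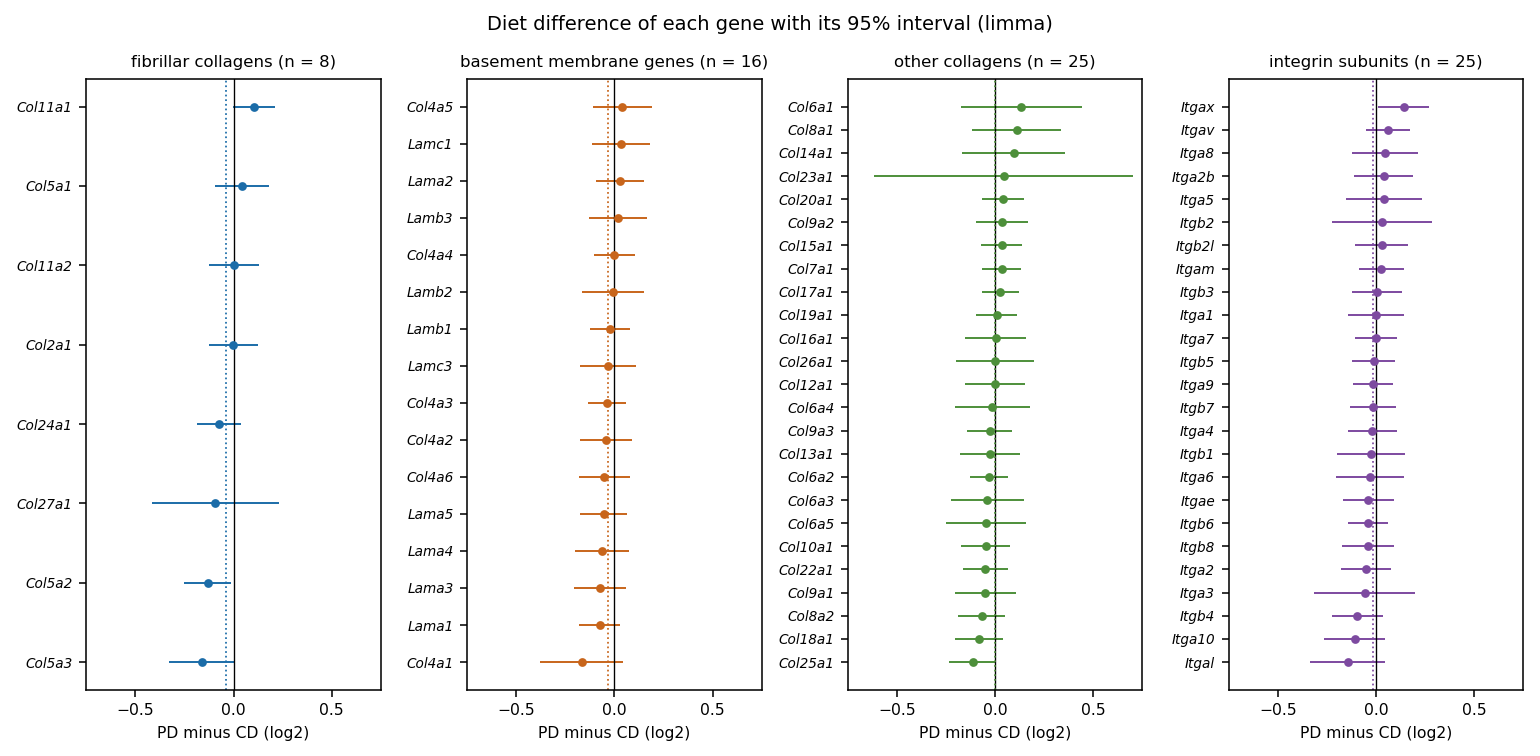
Difference between PD and CD mice on the log2 scale (x axis) for each gene of the 4 classes, with points for the limma estimate, bars for its 95% interval, a solid line at 0 and a dotted line at the class median. The medians lie between −0.04 and −0.00, the interval of Col23a1 is the widest, and Itgax and Col5a2 have intervals that leave out 0.

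Among the fibrillar collagens, 3 genes were higher and 5 lower in PD mice. Col5a2, a chain of type V collagen, which sits inside type I fibres and helps to set their width, had log2 signals of 6.97, 6.95, 7.03 and 7.04 in PD mice, against 7.04, 7.06, 7.21 and 7.21 in CD mice. All PD values lay below all CD values, but the nearest pair was 0.0014 apart. The difference was −0.13 (standard error 0.05; limma, adjusted p = 0.998), and its FDR was 0.954. Its signal lay below the median of all probe sets. Col5a2 was no longer separated after quantile normalization of the arrays or after each array was centred on its median, while its difference stayed at −0.12 under both.

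Col5a3, another type V chain, had a brighter probe set and differed by −0.16 (standard error 0.07). It read 9.51, 9.26, 9.55 and 9.39 in PD mice, against 9.66, 9.61, 9.43 and 9.66 in CD mice. The groups overlapped through CD replicate 3, whose value lay below that of PD replicates 1 and 3. Without that mouse the groups were separated, as they were in 8.97% of the 78 genes and 7.16% of all genes. Col5a1, the third type V chain, averaged 7.96 ± 0.09 in PD mice and 7.92 ± 0.10 in CD mice (SD, n = 4 each). On the probe sets used, the 3 chains of type V collagen did not share a direction. The next brightest probe set of each had the opposite sign, at −0.12 for Col5a1, 0.02 for Col5a2 and 0.05 for Col5a3.

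Col27a1, a cartilage fibrillar collagen, had one of the brighter probe sets of the class and the largest spread in it. Its values were 8.998, 9.06, 9.51 and 9.41 in PD mice, against 9.70, 9.20, 9.37 and 9.06 in CD mice, so that the groups overlapped over nearly their whole range. Col11a1, a chain of type XI collagen, which nucleates thin fibres, averaged 6.40 ± 0.07 in PD mice and 6.29 ± 0.04 in CD mice (SD, n = 4 each), a difference of 0.10 (standard error 0.05). Its dim probe set was the single one of the 78 genes whose groups were separated after quantile normalization or after median centring, where the differences were 0.11 and 0.11. The remaining 3 fibrillar genes, Col2a1, Col11a2 and Col24a1, had intervals within ±0.25.

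Among the basement membrane genes, 4 were higher and 12 lower in PD mice, 1 of 6 type IV collagens and 3 of 10 laminins being higher, where 9741 of all 18193 genes were lower. After quantile normalization or median centring, 6 were higher and 10 lower. The median stayed below 0 under each of these scalings. Without PD replicate 4 the split was 1 higher and 15 lower, with a median difference of −0.05, and without PD replicate 3 it was 6 higher and 10 lower, with a median of −0.02. The difference of largest size was that of Col4a1, one of the pair of chains that make up the type IV collagen of nearly every basement membrane. Col4a1 had log2 signals of 8.86, 8.94, 8.62 and 8.94 in PD mice, against 8.80, 9.23, 9.003 and 9.01 in CD mice. The difference was −0.17 (standard error 0.09), and the groups overlapped because CD replicate 1 was low. Without that mouse the difference was −0.24 and the groups were separated, as they were in 7.69% of the 78 genes and 4.63% of all genes. Without CD replicate 2, the highest mouse, it was −0.09.

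Col4a2, the partner chain, read 8.98, 8.87, 8.88 and 9.01 in PD mice, against 9.03, 8.88, 9.09 and 8.91 in CD mice. The difference was −0.04 (standard error 0.06), and the 2 diets covered nearly the same range. The chains Col4a1 and Col4a2 are built into 1 molecule, and the genes lie head to head, so that their promoters can be shown together. Both windows run from 250 bases before to 50 bases after the start of the gene (RefSeq, GRCm38.p6), that of Col4a1 at chr8:11312777-11313076 on the minus strand and that of Col4a2 at chr8:11312555-11312854 on the plus strand. The 78 bases in capitals are those that the windows share, each being the reverse complement of the other.
Col4a1: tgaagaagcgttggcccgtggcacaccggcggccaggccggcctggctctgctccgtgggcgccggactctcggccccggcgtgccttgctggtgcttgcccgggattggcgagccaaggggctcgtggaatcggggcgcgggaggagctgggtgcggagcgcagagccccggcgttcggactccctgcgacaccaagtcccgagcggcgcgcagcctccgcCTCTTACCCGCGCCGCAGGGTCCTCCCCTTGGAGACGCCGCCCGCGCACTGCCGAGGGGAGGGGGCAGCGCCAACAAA
Col4a2: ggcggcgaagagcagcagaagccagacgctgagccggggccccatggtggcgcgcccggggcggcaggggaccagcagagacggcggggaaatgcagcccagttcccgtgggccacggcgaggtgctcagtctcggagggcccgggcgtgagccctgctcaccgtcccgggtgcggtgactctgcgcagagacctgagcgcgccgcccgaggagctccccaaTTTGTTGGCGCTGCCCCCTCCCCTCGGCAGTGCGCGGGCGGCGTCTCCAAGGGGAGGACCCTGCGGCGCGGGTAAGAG

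The annotated starts of Col4a1 and Col4a2 are 21 bases apart. A GC box (GGGCGG, either strand), a motif that the factor Sp1 is known to bind, was found 1 time in the Col4a1 window and 3 times in the Col4a2 window, of which 1 lies in the shared bases, and a TATA box (TATAAA, either strand) was found in neither. Over the 63 windows that the table held for 57 of the 78 genes, 54.0% had a GC box and 6.35% a TATA box, against 35.7% and 13.6% of all 32851 windows. All windows together stand for 27025 genes and were not limited to genes on the array, so the shares are not a contrast among array genes. A match is a description of the letters. On the probe sets used, no correlation of Col4a1 with Col4a2 was found across the 8 mice (Pearson's r = −0.03, exact permutation test, p = 0.938; Spearman's rho = −0.05, exact permutation test, p = 0.935). With 8 mice this does not show that there is none. The second Col4a1 probe set, chosen after the values were seen, correlated with Col4a2 at r = 0.66 and had a difference of 0.06. It correlated with the first Col4a1 probe set at r = −0.34.

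Of the other type IV chains, Col4a3 and Col4a4, which with Col4a5 form the network of the kidney glomerulus, had signals below the median of all probe sets. Col4a3 averaged 6.80 ± 0.04 in PD mice and 6.84 ± 0.05 in CD mice, and Col4a4 averaged 6.36 ± 0.04 in PD mice and 6.36 ± 0.06 in CD mice (SD, n = 4 each). Col4a5 was the single type IV chain with a higher mean in PD mice, at a difference of 0.04 (standard error 0.07). Col4a6 differed by −0.05 (standard error 0.06).

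The laminins had differences between −0.07 and 0.03, and the interval of each lay within ±0.25. Lama5, an alpha chain of many adult basement membranes, had one of the brighter laminin probe sets and read 8.59, 8.53, 8.61 and 8.68 in PD mice, against 8.54, 8.74, 8.70 and 8.65 in CD mice. Lama4, an alpha chain of vessel walls, read 7.64, 7.68, 7.73 and 7.76 in PD mice, against 7.59, 7.84, 7.86 and 7.76 in CD mice. In both genes CD replicate 1 was the low CD mouse, as it was in Col4a1. Without it the groups were separated in Lama4, by a gap of 0.0005, but not in Lama5. In that setting 7.69% of the 78 genes and 4.63% of all genes were separated. Lama1, the alpha chain of the embryonic basement membrane, differed by −0.07 (standard error 0.05) on a dim probe set, and Lama3, an alpha chain of epithelia, by −0.07 (standard error 0.06). Lamb2 had the largest within-diet SD of the laminins and averaged 6.80 ± 0.11 in PD mice and 6.80 ± 0.11 in CD mice (SD, n = 4 each). Lamb1 and Lamc1, the beta and gamma chains of common laminins, differed by −0.02 and 0.03.

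Among the other collagens, 11 were higher and 14 lower in PD mice. Of the 78 genes, the highest signal was read on Col18a1, a collagen of vessel walls whose end fragment is endostatin and which hepatocytes are known to make. Signals of different probe sets do not rank amounts of RNA, since each probe set binds in its own way. Col18a1 read 11.94, 11.84, 11.98 and 11.83 in PD mice, against 12.05, 11.91, 12.05 and 11.91 in CD mice, a difference of −0.08 (standard error 0.06). In each diet 2 mice lay high and the other 2 low, and the groups overlapped. The second Col18a1 probe set gave the same difference, −0.08, and followed the first across the mice at r = 0.87.

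Col14a1, a collagen that decorates the surface of fibres, read 8.92, 8.89, 8.88 and 8.98 in PD mice, against 8.71, 8.53, 9.22 and 8.83 in CD mice. The PD mice lay close together, and the CD mice lay on both sides of them. The difference was 0.09 (standard error 0.12), and it was −0.00 without CD replicate 2 and 0.23 without CD replicate 3. Col6a1, a chain of the beaded filaments of type VI collagen, had the positive difference of largest size in this class, 0.13 (standard error 0.14), with the same layout: 8.49, 8.29, 8.54 and 8.44 in PD mice, against 8.76, 8.34, 8.17 and 7.96 in CD mice. Here CD replicate 1 was the high mouse and CD replicate 4 the low one, and the difference was 0.28 without CD replicate 1 and 0.02 without CD replicate 4. The partner chains Col6a2 and Col6a3 differed by −0.03 (standard error 0.04) and −0.04 (standard error 0.08).

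Col8a1, a network collagen of vessel walls, read 7.50, 7.51, 7.48 and 7.41 in PD mice, against 7.48, 7.03, 7.34 and 7.61 in CD mice. Its difference of 0.11 (standard error 0.10) rested on CD replicate 2, without which it was −0.00. On the next brightest probe set of Col8a1 the difference was −0.06, and that probe set correlated with the first at r = −0.70. Col25a1, a membrane-bound collagen known from nerve and muscle, had the negative difference of largest size in the class, −0.11 (standard error 0.05), with 8.01, 8.03, 8.14 and 8.08 in PD mice, against 8.21, 8.20, 8.06 and 8.25 in CD mice. The groups overlapped through CD replicate 3. Col23a1, a membrane-bound collagen, stood apart by its spread, with 6.39, 6.94, 8.07 and 7.70 in PD mice, against 7.37, 7.45, 6.98 and 7.12 in CD mice. The PD mice lay on both sides of the CD mice, and the difference was 0.04 (standard error 0.30), with an interval from −0.61 to 0.70. This spread was read on 1 probe set. The next brightest one, with a signal of 6.89, correlated with it at r = 0.14 across the mice.

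**Figure D2:**
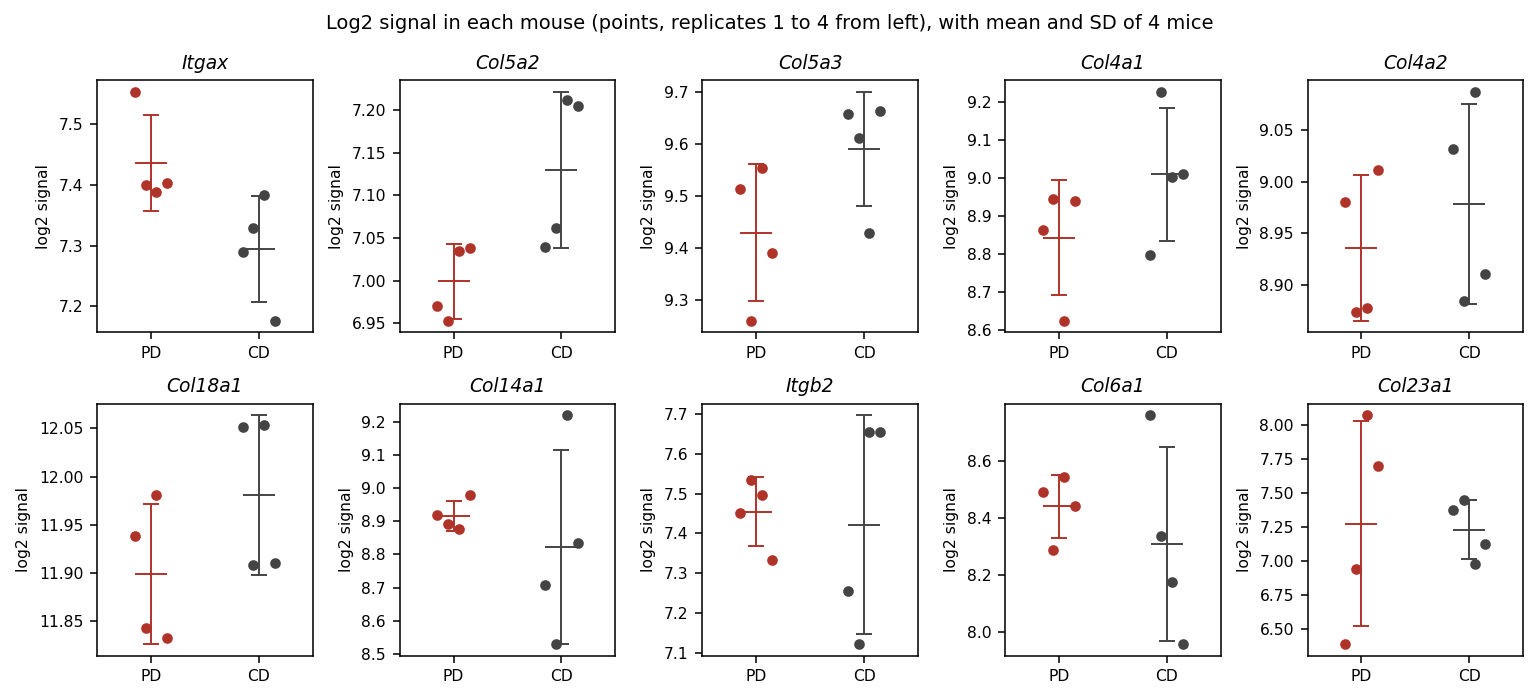
Log2 signal (y axis, a separate scale in each panel) of 10 genes in each mouse, PD left of CD, with points for replicates 1 to 4 from left to right and a bar for the mean and SD of 4 mice. Itgax and Col5a2 are separated by narrow gaps, and Col14a1, Itgb2 and Col6a1 have PD mice that lie between the CD mice.

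The spread between mice was set side by side for the diets in each class. The SD of the 4 PD mice was the larger one in 6 of the 25 other collagens, or 24.0%, against 47.7% of all genes, 4 of 8 fibrillar collagens, 7 of 16 basement membrane genes and 12 of 25 integrin subunits. The median SD in this class was 0.06 in PD mice and 0.09 in CD mice. The count was 5 or 6 under quantile normalization and median centring and reached 9 without CD replicate 1, 3 or 4, where the share of all genes was between 50.7% and 52.7%. These counts are a description without a test, and genes measured on the same 8 mice are not independent. Col14a1 had an SD of 0.05 in PD mice and 0.29 in CD mice. Col8a1 had an SD of 0.05 in PD mice and 0.25 in CD mice. The opposite was seen in Col23a1, at 0.75 in PD mice and 0.22 in CD mice. For Col8a1 and Col23a1 these SDs hold for the probe set used, which the next brightest one did not follow across the mice.

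**Figure D3:**
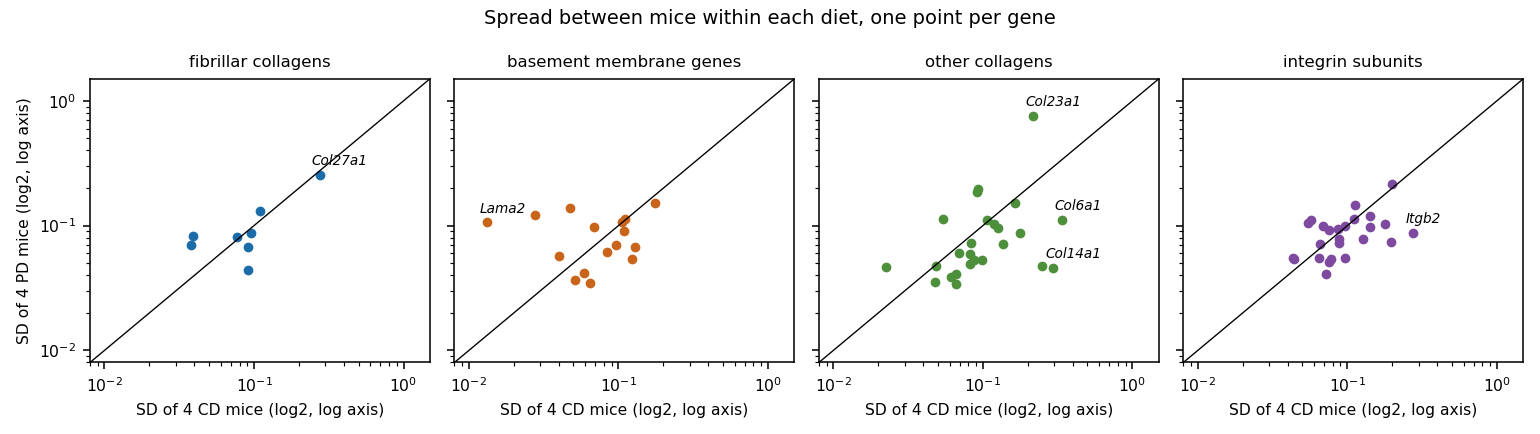
SD of the 4 PD mice (y axis) against the SD of the 4 CD mice (x axis) for each gene on the log2 scale, both axes logarithmic, with a line where they are equal. In the panel of other collagens 6 of 25 genes lie above the line, and Col23a1 lies farthest above it.

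By signal, 19 of 25 other collagens and 17 of 25 integrin subunits lay above the median of all probe sets, as did 4 of 8 fibrillar collagens and 9 of 16 basement membrane genes, against 66.5% of all genes. A low signal of a probe set does not show that the gene is silent. Over the genes above that median the median difference was −0.05 for 4 fibrillar collagens, −0.05 for 9 basement membrane genes, −0.00 for 19 other collagens and −0.01 for 17 integrin subunits.

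Among the integrin subunits, 11 were higher and 14 lower in PD mice, split 8 to 8 over the alpha subunits and 3 to 6 over the beta subunits. Itgax, which encodes CD11c, the alpha subunit of a leukocyte integrin of dendritic cells and some macrophages, read 7.55, 7.40, 7.39 and 7.40 in PD mice, against 7.29, 7.33, 7.38 and 7.18 in CD mice. All PD values lay above all CD values, with a gap of 0.0050 between the nearest pair. The difference was 0.14 (standard error 0.06; limma, adjusted p = 0.998), and its FDR was 0.920. Complete separation of 4 mice from 4 gives the smallest two-sided p that an exact permutation test can reach, 0.0286. As with Col5a2, the separation was lost after quantile normalization and after median centring, while the difference stayed at 0.15 under both.

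Of the other leukocyte integrins, Itgal, the alpha subunit of LFA-1 on lymphocytes, had the negative difference of largest size among the subunits, −0.14 (standard error 0.09), with 7.96, 8.15, 8.15 and 8.19 in PD mice, against 8.04, 8.47, 8.21 and 8.30 in CD mice. Itgam, the alpha subunit of the complement receptor of myeloid cells, averaged 6.42 ± 0.07 in PD mice and 6.39 ± 0.07 in CD mice (SD, n = 4 each). Itgb2, the beta subunit that all of these share, read 7.45, 7.54, 7.50 and 7.33 in PD mice, against 7.26, 7.12, 7.66 and 7.66 in CD mice. CD replicates 1 and 2 were the lowest mice and CD replicates 3 and 4 the highest, with all PD mice between them, and the difference was 0.03 (standard error 0.11).

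The bright integrin probe sets were those of Itgb1, the beta subunit of most matrix receptors, and of Itgav and Itgb5, which pair in a vitronectin receptor. Itgb1 averaged 10.44 ± 0.15 in PD mice and 10.47 ± 0.11 in CD mice, Itgav 9.59 ± 0.05 in PD mice and 9.52 ± 0.08 in CD mice, and Itgb5 9.54 ± 0.05 in PD mice and 9.55 ± 0.06 in CD mice (SD, n = 4 each). The intervals of these 3 subunits lay within ±0.25. Itga10, a collagen receptor subunit of cartilage, and Itgb4, the beta subunit that anchors epithelia to laminin, differed by −0.11 (standard error 0.07) and −0.10 (standard error 0.06). Itga3, an alpha subunit that binds laminin, had the largest within-diet SD of the subunits and read 7.87, 8.36, 7.95 and 8.10 in PD mice, against 8.10, 8.42, 7.98 and 8.03 in CD mice. The 4 genes that share the name but do not encode a subunit had differences between −0.08 and 0.03.

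Partner chains and subunits were set against each other across the 8 mice. Of 19 pairs that are known to join in 1 molecule, 6 had a positive and 13 a negative Pearson's r, from −0.68 to 0.64, and 0 had an exact permutation p under 0.05 (lowest p = 0.0663, lowest adjusted over the 19 pairs 0.360). Spearman's rho also gave 0 pairs. The highest r was that of Itga5 with Itgb1, the subunits of the fibronectin receptor, at 0.64 (rho = 0.64), and 0.40 without CD replicates 1 and 4, the mice farthest from the median of Itga5. The lowest was that of Itga9 with Itgb1 at −0.68 (rho = −0.62), and −0.17 without the 2 mice farthest from the median of Itga9. Itgax correlated with Itgb2 at −0.06. With the diet means subtracted, 18 of the 19 pairs kept their sign. Bright probe sets of 1 gene had a median correlation of only −0.01 across these mice, and those of Itgb1 correlated at −0.32. Partners that vary together could thus have been missed, and the signs do not show that they vary apart.

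**Figure D4:**
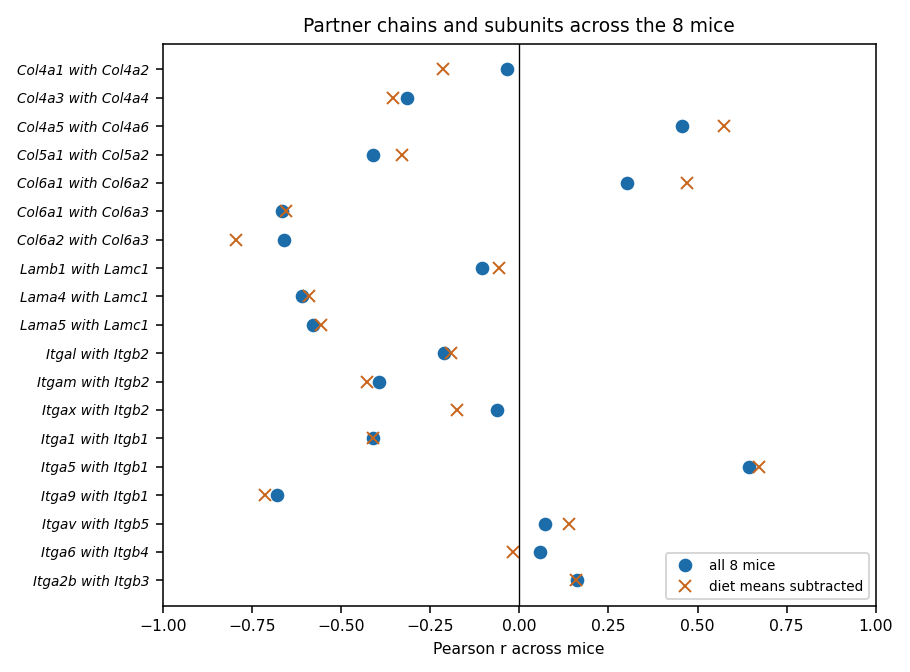
Pearson's r across the 8 mice (x axis) for 19 pairs of chains or subunits, with circles for the values as deposited and crosses for deviations from the diet means. The circles run from −0.68 to 0.64, 13 of them below 0.

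The probe sets of a gene often disagreed, which sets a limit on single genes. Of 46 genes with several probe sets, the difference changed sign between them in 29. For 13 genes the brightest pair of probe sets both lay above the median signal, and their correlation across mice had a median of −0.01 and a range from −0.50 to 0.96, with 4 over 0.5. These 4 were Col27a1 at 0.96, Col14a1 at 0.93, Itgb5 at 0.90 and Col18a1 at 0.87. The pairs disagreed in Col4a1 (signals 8.93 and 8.29, r = −0.34), Itgb1 (10.45 and 8.75, r = −0.32) and Lama5 (8.63 and 8.06, r = 0.07). Of the 159 probe sets, 6 had an unadjusted limma p under 0.05, against 3.65% of all probe sets, and 4 were separated, against 2.08%. These counts are near those shares as well. The lowest p lay on a dim probe set of Itgb1, which read 6.88, 6.85, 6.82 and 6.83 in PD mice, against 6.94, 7.05, 6.98 and 7.10 in CD mice, a difference of −0.17 (standard error 0.05). The bright probe set of Itgb1 differed by −0.02. A second probe set of Col6a2, of nearly the same signal as the one used, differed by 0.22 (standard error 0.08), against −0.03.

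The levels of the 78 genes were set against 3 of the 8 marker lists across the 8 mice. These 3 lists were chosen after the values had been seen, and the adjustment does not cover that choice. Of the 234 relations of genes with lists, 1 passed the threshold of 0.05 after adjustment, that of Col14a1 with the stellate cell list. The mean of 15 markers of stellate cells and fibroblasts lay between −0.01 and 0.08 in PD mice and between −0.12 and 0.10 in CD mice (log2, each marker relative to its own mean over the 8 mice), and 15 of 15 had a signal above the median of all probe sets. Col14a1 followed this list across the 8 mice, at r = 0.93 (exact permutation test, p = 2.48e-05, the smallest that 40320 pairings can give; adjusted over 234 relations 0.0058) and rho = 1. Without CD replicates 1 and 2, the mice farthest from the median of the list, r was 0.82, and with the diet means subtracted it was 0.97. Col3a1, an interstitial collagen left out here, was called as higher in PD mice by the rank product (FDR = 0.0216) but did not pass limma (adjusted p = 0.998). It read 8.52, 8.83, 8.70 and 8.72 in PD mice, against 8.20, 7.94, 8.99 and 8.15 in CD mice. In Col14a1 and on the brightest probe sets of Col3a1 and Col1a2, CD replicate 3 was the highest of the 8 mice and CD replicate 2 the lowest. The dim probe sets of Col1a2 and Col3a1 and both probe sets of Col1a1, also dim, did not have this order. Of the 78 genes only Col14a1 passed for this list. Col19a1, on a dim probe set, had an r of −0.75 (exact permutation test, p = 0.0271, adjusted 0.423). With the diet means subtracted its r was −0.94 and it passed as well, by permutations that are only approximate for such deviations. Its next brightest probe set correlated with the one used at r = −0.01.

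Itgb2 followed the mean of 11 markers of Kupffer cells and macrophages at r = 0.94 (exact permutation test, p = 0.00067; adjusted 0.0783) and rho = 0.93, which missed the threshold of 0.05 after adjustment. That list was lower in CD replicates 1 and 2, at −0.22 and −0.30, and higher in CD replicates 3 and 4, at 0.23 and 0.19, with the PD mice between −0.01 and 0.10, so that the PD mice covered little of its range. Without CD replicates 1 and 2, r was 0.81. The list of 14 markers of sinusoidal endothelial cells had 0 genes past the adjusted threshold. Itgb5 was highest at r = 0.87 (exact permutation test, p = 0.00538; adjusted 0.252). Itga2b was lowest at r = −0.88 (exact permutation test, p = 0.00332, adjusted 0.252). Of the 78 genes, r was positive for 29 with the stellate cell list, 26 with the endothelial list and 27 with the Kupffer cell list. These relations were chosen after the values had been seen, and the part of cell numbers in the levels of Col14a1 and Itgb2 was not tested.

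**Figure D5:**
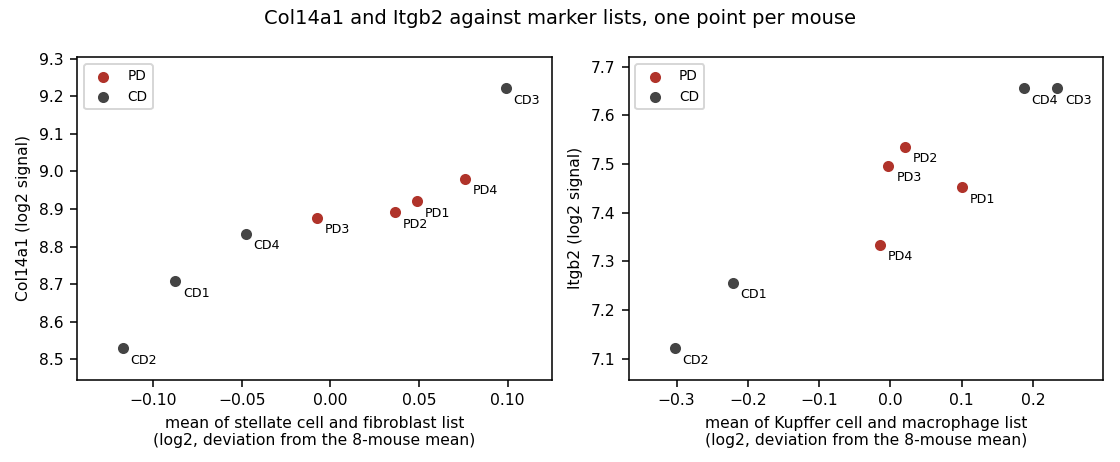
Log2 signal of Col14a1 (left) and Itgb2 (right) in each mouse on the y axis, against the mean of the stellate cell list (left) and of the Kupffer cell list (right) on the x axis, on the log2 scale and relative to the average mouse. PD mice lie between the extremes of the CD mice in both panels.

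The genes that make, cut and connect the matrix were read in the same way, from lists fixed by function. Of 22 measured genes of collagen processing, 0 were called, 13 were higher and 9 lower in PD mice, and the median difference was 0.02. P3h1, which hydroxylates proline in collagen chains, differed by −0.10 (standard error 0.05). Of 17 matrix proteases and inhibitors, 0 were called, with 6 higher and 11 lower and a median of −0.00. Mmp2, a gelatinase that cuts type IV collagen, differed by −0.18 (standard error 0.11), and by −0.07 without PD replicate 1, its lowest mouse. Timp3, a protease inhibitor bound to the matrix, differed by 0.14 (standard error 0.10), and by 0.24 without PD replicate 1, again the lowest. Of 19 other matrix glycoproteins, 0 were called, with 9 higher and 10 lower and a median of −0.01. Fn1, fibronectin, the ligand of the integrin that Itga5 and Itgb1 form, averaged 12.64 in PD mice and 12.63 in CD mice. Of 22 integrin adhesion proteins, which tie integrins to actin or signal from them, 0 were called, with 11 higher and 11 lower and a median of −0.01. The difference of largest size was that of Lims1, an adaptor of the integrin-linked kinase, which averaged 9.91 ± 0.14 in PD mice and 10.18 ± 0.28 in CD mice (SD, n = 4 each), a difference of −0.26 (standard error 0.12; FDR = 0.242). Without CD replicate 2, the highest mouse, it was −0.14, without CD replicate 1, the lowest CD mouse, it was −0.37, and on its next brightest probe set it was 0.07.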

How the data were processed

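Liver RNA of 4 PD and 4 CD mice was measured, with 1 array per mouse. The authors quantified the arrays with a model-based expression index and deposited it on the log2 scale. The submitters' notes name R 2.7.2, and how arrays were normalized to each other is not stated in the labels or the methods. Values were used as deposited. After 64 control probe sets had been removed, 45037 remained for the tests. By the platform annotation, 34945 had 1 gene symbol, 932 several and 9160 none. Arrays give no read depth, and the 4 mice per diet limit the precision. The labels do not say whether replicate numbers pair mice, and same-numbered mice did not deviate together (correlations between −0.06 and −0.00), so no pairing was used. No batch or scan date was named in these sources.

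The rank product of the study's methods was computed over 16 pairs of arrays with 1000 permutations in Python 3.11.15 (numpy 2.4.6, pandas 2.3.3, scipy 1.17.1) and called at an FDR under 0.1. An FDR of this kind can exceed 1. limma 3.58.1 in R 4.3.3 was fitted to all probe sets at an adjusted p under 0.1. Correlations were tested by exact permutation, two-sided. For deviations from the diet means the same permutations are only approximate. The code was tested on simulated arrays. The genes, classes, pairs and lists were chosen with earlier results of these data known. Genes were named if called, if their diet groups did not overlap, if they had the 4 largest differences, 3 highest signals or 2 largest SDs of their class, or if they belonged to a pair, and others were named after their values were seen. Promoters came from RefSeq (GRCm38.p6). The alternatives were an FDR under 0.05, quantile normalization, a block for the replicate number, median centring, 16 added before log2, a filter on dim probe sets, no probe sets that can detect several genes, the mean of all probe sets, limma with trend and robust variances or with array weights, the methods' t-test, and leaving out each mouse.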

Additional observations from a re-analysis of the deposited data

Results flagged for a closer look

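Within the 4 mice of a diet, 2 values of the 27 genes examined lay far from the other 3 by Dixon's criterion, which chance meets in about 1 of 20 groups, and 54 groups were examined. Itgax in PD replicate 1 was 7.55, against 7.39 to 7.40 in the other PD mice. Itgb1 in PD replicate 4 was 10.66, against 10.36 to 10.38 in the other PD mice.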

How the results depend on the processing

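The counts of 0 genes called by the rank product in either direction, 0 past limma, 0 called in the matrix lists and 0 pairs past the adjusted threshold held under every alternative run for them. With the replicate block (same-numbered mice as pairs, which the data did not bear out, since 0 of 8 mice correlated best with their own number) 0 genes were called and 0 passed limma. Genes with an unadjusted limma p under 0.05 were 2, with the filter on dim probe sets 1 of 51, against 3.93% of all genes, and 0 to 6 when 1 mouse was left out, against 3.2% to 6.81% of all genes, the 6 without CD replicate 1, against 4.13%. Separated genes were 2, but 1 after quantile normalization, 1 after median centring and 1 with the filter, and 2 to 7 when 1 mouse was left out, where 3.82% to 7.16% of all genes were separated. They were 6 without CD replicate 1, or 7.69%, against 4.63% of all genes, and 7 without CD replicate 3, or 8.97%, against 7.16%. The median difference of the fibrillar collagens ran from −0.062 to 0.021 when 1 mouse was left out, and was above 0 only without CD replicate 1. That of the basement membrane genes ran from −0.053 to −0.020. Genes past the adjusted threshold with a marker list were 1. They were 2 with the diet means subtracted, an alternative chosen after seeing the data and tested by approximate permutations. Single genes turned sign near 0: Lamb2 was 0.00081 after quantile normalization and 0.0032 after median centring, the mean of all probe sets gave −0.034 for Col5a1 and 0.014 for Itga3, and Lims1 was 0.068 without probe sets that can detect several genes. Leaving out 1 mouse gave ranges across 0 for Lamb2 (−0.038 to 0.049), Col27a1 (−0.18 to 0.030), Col8a1 (−0.0014 to 0.19), Col14a1 (−0.0039 to 0.23), Col23a1 (−0.22 to 0.34), Itgb1 (−0.097 to 0.016), Itgb5 (−0.035 to 0.016), Itga3 (−0.15 to 0.039) and Itgb2 (−0.068 to 0.11). Also without 1 mouse, the correlation of Col14a1 with the stellate cell list was 0.88 to 0.94 and that of Itgb2 with the Kupffer cell list 0.90 to 0.96. The median half-width of the 95% intervals was 0.13 over the 78 genes, and smaller differences could not be told from 0 for most of them. Dim probe sets may not follow their gene.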
